A study of Drosophila melanogaster with 12 samples.

Results

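The genes described here encode subunits of the proteasome. They were taken as every row whose FlyBase symbol begins with Prosalpha or Prosbeta, or with Rpn or Rpt followed by a digit, which gave 35 of the 10893 genes measured. Of these, 31 encode the main subunits of the complex: 6 genes of the alpha ring, 7 of the beta ring, 6 ATPases of the base, 4 other base subunits and 8 lid subunits. The other 4 (Rpt3R, Rpt4R, Rpt6R and Rpn13R) are paralogs of main subunits. The seventh alpha subunit, Prosalpha1, and 12 further symbols that the rule would take have no row used here and were not analysed. RNA came from Drosophila melanogaster of the strain w[11-18], raised at 25 °C on yeast-glucose medium. The 12 libraries, 1 for each group, were whole larvae taken 72, 96 and 120 h after the eggs were laid (each within 1 h), eye-antennal discs (whole) at those 3 ages and at white puparium formation (WPP), discs with the mouthparts attached at 72 h, and, at 96 and 120 h, the eye part and the antenna part cut from each other. The labels name no transgene, mutant line or treatment beyond this strain, no sex and no number of animals or discs per library. Each value is 1 FPKM per gene and library (fragments scaled by transcript length and library total). Levels are set side by side between genes on the basis of this scaling, and how well it holds across transcript lengths was not tested. The eye-antennal disc is an epithelial sac in the larva that later gives rise to the eye, the antenna and head cuticle of the adult.

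The 26S proteasome degrades proteins tagged with ubiquitin. Its core is a barrel of stacked alpha and beta rings, with the protease sites of Prosbeta1, Prosbeta2 and Prosbeta5 on the inside. A cap, the regulatory particle, sits on the barrel: its base holds the ring of Rpt ATPases that unfold substrates, and its lid holds the deubiquitinase Rpn11. In cells where the proteasome is impaired, transcription factors of the Nrf1 family, to which fly cnc belongs, are known to raise the genes of the whole complex together. In flies many proteasome genes also have paralogs that are known to be expressed in the testis.

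Summed FPKM ran from 939303 to 2210255 per library, and the number of reads is unknown. Genes whose longest transcript is under 200 nt held 6.70% to 14.7% of the FPKM in 5 libraries (larva 96 h, disc 72 h, disc 96 h, eye 120 h and antenna 120 h) and 23.2% to 50.0% in the other 7. Lists of marker genes went with the dissected parts. The 6 eye markers, such as gl and sev, summed to 509 (96 h) and 435 FPKM (120 h) in the eye part, where the antenna part had 38.4 and 35.0. The 5 antenna markers, such as Dll, summed to 271 and 234 FPKM in the antenna part, where the eye part had 22.6 and 33.1.

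Proteasome subunit genes were among the more abundant messages in every library. The median level of the 31 main subunits was 76.4, 87.5 and 217 FPKM in larvae at 72, 96 and 120 h. In whole discs it was 195, 212 and 169 FPKM at these ages and 186 FPKM at WPP. The disc with mouthparts stood at 158 FPKM, the eye part at 183 and 167 FPKM at 96 and 120 h, and the antenna part at 175 and 206 FPKM. Among genes of at least 1 FPKM, these medians lay between the 84.2 and the 94.7 percentile of their library. In larvae at 72 and 96 h all 31 genes were below their level in each of the 9 disc libraries. All genes leaned the same way: whole disc minus larva had a median of 0.83 and 1.05 log2 units at 72 and 96 h. For the 31 it was 1.14 and 1.01, so low larval levels were not particular to proteasome genes. In larvae at 120 h, 18 of the 31 were above their level in each disc library and 13 were within the disc range. No share of all genes is given for these counts. The place of the larvae depended on the scaling: with the libraries scaled by the median ratio of their genes, the medians were 134, 170 and 281 in larvae and 139 to 175 in disc tissue, and with equal library totals they were 34.6, 48.6 and 146 in larvae and 113 to 219 in disc tissue.

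**Figure D1:**
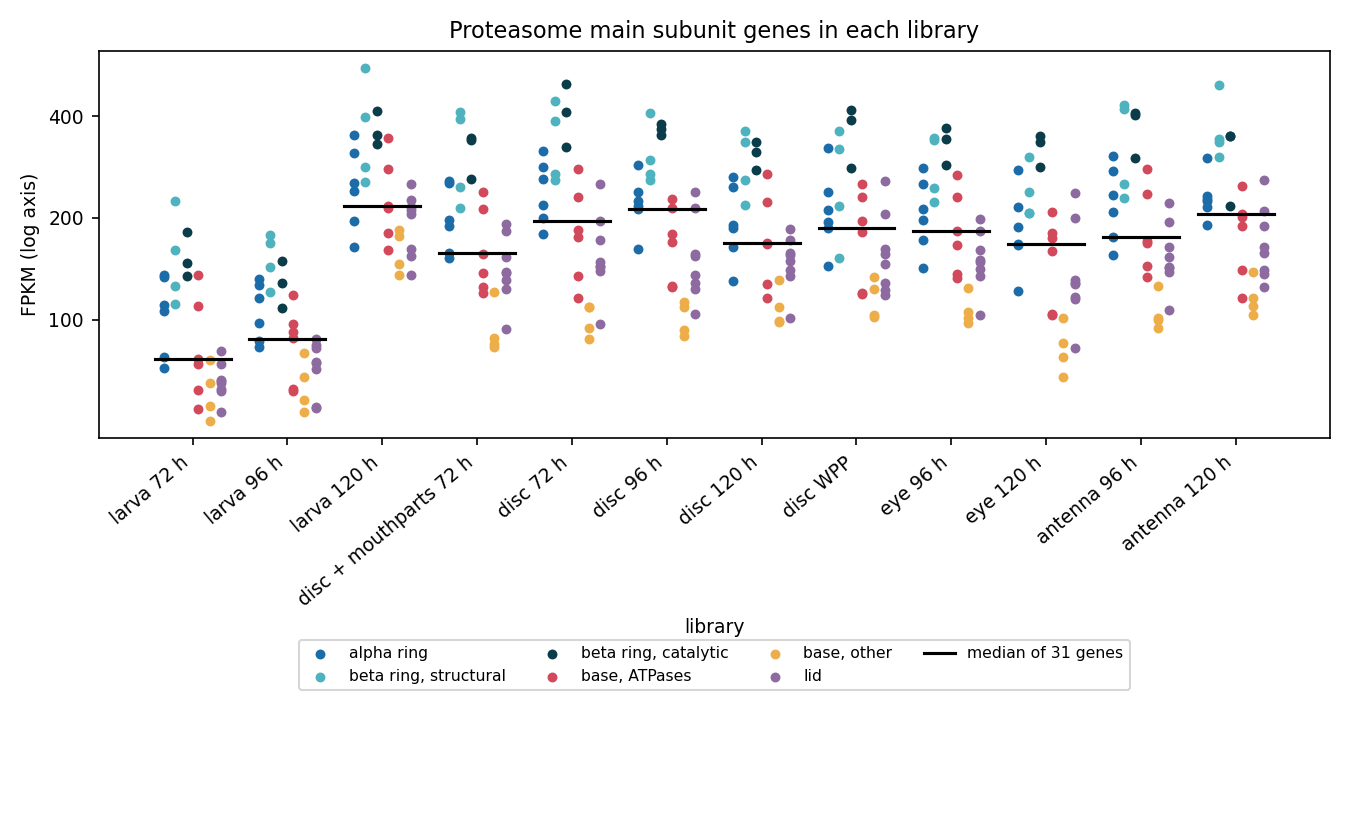
FPKM (log axis) of the 31 main subunit genes in each of the 12 libraries. Each point is 1 gene, coloured by its part of the complex, and black lines are the medians over the 31, from 76.4 FPKM in larvae at 72 h to 217 FPKM in larvae at 120 h; the 2 younger larva libraries sit below all others.

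Core genes were listed at higher levels than cap genes. The median of the 13 core genes was 1.59 to 2.05 times that of the 18 cap genes across the 12 libraries. Prosbeta4, a structural beta subunit, had the highest mean level of the main subunits (355 FPKM), followed by Prosbeta7 (337 FPKM). Rpn2 and Rpn1, the large scaffold proteins of the base, had the lowest means (90.8 and 91.4 FPKM). Subunits that are present in equal number in the assembled particle were thus measured at RNA levels that differed from each other by 3.33 to 5.68 times within a library. Length differed as well: the longest transcripts were 815 to 1215 nt in core genes and 995 to 3412 nt in cap genes. Rpn1 (3041 nt) and Rpn2 (3412 nt) were the longest of the 31. The part of transcript length in these differences was not tested. The order of the 31 genes was much the same everywhere: Spearman's rho between any pair of libraries, over the 31 genes and as a description only, was 0.79 to 0.99.

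The catalytic subunit genes showed how differently single members of the ring can vary. Prosbeta1, the subunit with caspase-like activity, was at 147, 149 and 332 FPKM in larvae at 72, 96 and 120 h. It was at 325, 351, 277 and 280 FPKM in whole discs at 72, 96 and 120 h and WPP, and at 261 FPKM with the mouthparts. The eye part gave 286 and 282 FPKM and the antenna part 301 and 350 FPKM at 96 and 120 h. All disc tissue was thus within 1.34-fold for Prosbeta1, and the larva libraries at 72 and 96 h stood below it.

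Prosbeta2, the subunit with trypsin-like activity, was at 135, 128 and 352 FPKM in larvae, and at 413, 378, 314 and 389 FPKM in whole discs in the same order. It was at 340 FPKM with the mouthparts, at 370 and 350 FPKM in the eye part and at 409 and 348 FPKM in the antenna part. The younger larvae were again lowest, and the disc libraries lay within 1.31-fold. Prosbeta5, the subunit with chymotrypsin-like activity, was at 182, 108 and 414 FPKM in larvae and at 499, 366, 335 and 418 FPKM in whole discs. It was at 344 FPKM with the mouthparts, 343 and 334 FPKM in the eye part, and 403 and 217 FPKM in the antenna part. Prosbeta5 spanned 2.30-fold among disc libraries, the widest range of the 31 genes, because the antenna at 120 h was low and the disc at 72 h high.

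Of the structural beta genes, Prosbeta4 was at 160, 169 and 397 FPKM in larvae and at 445, 408, 335 and 360 FPKM in whole discs. It was at 411 FPKM with the mouthparts, at 345 and 303 FPKM in the eye part and at 433 and 496 FPKM in the antenna part, so that both antenna libraries were above both eye libraries. Prosbeta7 was at 224, 178 and 553 FPKM in larvae and at 388, 296, 361 and 319 FPKM in whole discs. Its level was 393 FPKM with the mouthparts, 339 and 238 FPKM in the eye part and 418 and 336 FPKM in the antenna part. The larva at 120 h held the highest value of any proteasome gene in this series, that of Prosbeta7.

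Prosbeta3 departed from the other beta genes in the prepupal disc. It was at 111, 121 and 255 FPKM in larvae, and at 270, 269, 259 and 152 FPKM in whole discs at 72, 96 and 120 h and WPP. It was at 246 FPKM with the mouthparts, 222 and 206 FPKM in the eye part and 228 and 342 FPKM in the antenna part. Prosbeta3 and Prosbeta5 were the 2 main subunits whose levels spanned at least 2-fold among disc libraries (2.24-fold for Prosbeta3).

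The large base subunits had the lowest levels. Rpn1, which docks ubiquitin-binding shuttle proteins, was at 55.7, 57.9 and 146 FPKM in larvae and at 87.9, 89.6, 98.5 and 102 FPKM in whole discs. It was at 84.8 FPKM with the mouthparts, 97.6 and 67.8 FPKM in the eye part and 99.7 and 109 FPKM in the antenna part. The eye at 120 h was the lowest disc library for Rpn1. Rpn2 was at 50.3, 53.4 and 136 FPKM in larvae, at 94.3, 93.2, 99.3 and 104 FPKM in whole discs, at 83.1 FPKM with the mouthparts, at 101 and 77.6 FPKM in the eye part and at 94.6 and 103 FPKM in the antenna part, where the larva at 120 h was again above every other library.

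Over the 9 disc libraries, the highest level of a main subunit was 1.24 to 2.30 times its lowest, with a median of 1.42. For 29 of the 31 the range was under 2-fold, against 51.1% of the 7554 genes compared, whose median ratio was 1.97. Rpn8, a lid subunit that pairs with Rpn11, had the narrowest range. Over the 3 larva libraries the same ratio was 2.11 to 3.83, and it was at least 2-fold for all 31 (median of all genes 2.21). Low genes vary more in such ratios than abundant genes, and the set of all genes holds many that are low.

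Each subunit was also set against the median of the 31 in its own library, which removes any scaling of the whole library. On this scale Prosalpha4, Rpt6 and Prosbeta1 moved least, with an SD over the 12 libraries of 0.07, 0.08 and 0.09 log2 units. Prosbeta5 moved most (SD 0.38), from 0.08 above the median in the antenna at 120 h to 1.35 above it in the disc at 72 h. Prosbeta7 (SD 0.34) was 0.48 above the median in the disc at 96 h and 1.54 above it in larvae at 72 h. Prosbeta3 was 0.29 below the median in the prepupal disc and 0.73 above it in the antenna at 120 h. In the 4 disc libraries with a low share of FPKM in short transcripts, Rpn12, Rpn1, Rpn2 and Rpt2 stood wholly lower against the median than in the 5 with a high share, and the other 27 genes overlapped. How many of all genes stood apart in this way is not given here, so the 4 are listed as a description. The part of that library property in these differences was not tested. Exons of Rpn9 and Rpt6 overlap genes on the opposite strand over 15.7% and 13.0% of their bases, and whether strand was used in the counting is unknown.

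**Figure D2:**
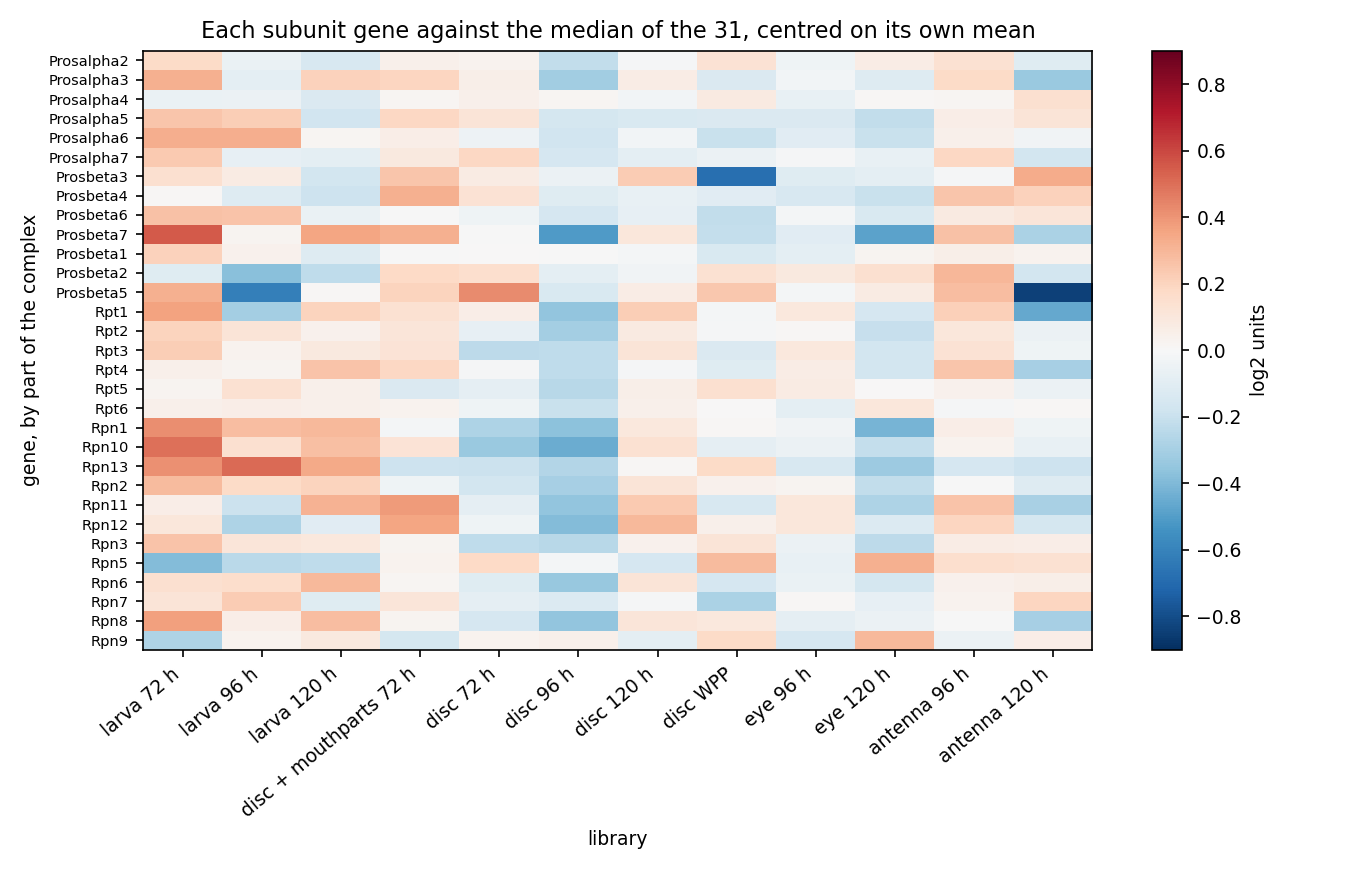
Each main subunit gene (rows, grouped from the alpha ring at the top to the lid at the bottom) in each library (columns), as log2(FPKM + 1) minus the median of the 31 genes in that library, centred on the gene's own mean over the 12 libraries. Red is high and blue low; the darkest cells are Prosbeta5 in the antenna at 120 h and Prosbeta3 in the prepupal disc, while the rows of Prosalpha4 and Rpt6 are nearly blank.

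In whole larvae the RNA levels of the 31 genes, as deposited, were similar at 72 and 96 h and higher at 120 h. With 1 library against 1 there is no test, and 2 values are called 2-fold apart here where log2(FPKM + 1) differed by 1 or more and the higher library held 5 FPKM or more. From 72 to 96 h the median difference of the 31 genes was 0.07 log2 units (all genes -0.14), and 0 of 31 were 2-fold apart, where 27.1% of all genes were. Its sign depended on the scaling, since it was -0.41 when libraries were rescaled over transcripts of at least 200 nt. Among proteasome genes whose higher value reached 5 FPKM, Prosbeta5 (-0.74) and the ATPase Rpt1 (-0.48) were furthest down, and the paralogs Rpt4R (1.49) and Rpt3R (1.02) furthest up.

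From 96 to 120 h all 31 genes were higher, by 0.91 to 1.93 log2 units, with a median of 1.32. Of the 31, 27 were at least 2-fold higher, where 25.1% of all genes were, and the median of all genes was 0.61. The difference was shared by all parts of the complex: the median was 1.23 for the alpha ring, 1.15 for the structural and 1.45 for the catalytic beta genes, 1.32 for the ATPases, 1.33 for the other base subunits and 1.40 for the lid. Prosbeta5 (1.93) and Rpt1 (1.81) differed most, and Prosalpha5 (0.91) and the lid subunit Rpn7 (0.97) least. Prosbeta5 and Rpt1 were also those that were lowest at 96 h relative to 72 h. Both steps share the 1 larva library at 96 h, so a low value there gives both and this is no separate observation. From 72 to 120 h the catalytic genes, Prosbeta5 among them, differed by 1.17 to 1.38, and the median of the 31 was 1.34. Under a median-ratio scaling the median of the 31 was 0.74 and that of all genes 0.07, and 5 of the 31 were 2-fold higher.

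These larva libraries differed in other ways too. The share of FPKM in genes under 200 nt was 50.0%, 14.1% and 26.0% at 72, 96 and 120 h. Between 72 and 120 h all 31 genes were at least 2-fold higher at 120 h (31.6% of all genes), by a median of 1.34. With the median-ratio scaling this median was 0.89 and 7 of the 31 were 2-fold higher, and with equal library totals it was 1.90. The 9 muscle markers with a row, of 11 listed, summed to 23626, 15269 and 3356 FPKM at the 3 ages. The 7 fat body markers summed to 14762, 52446 and 33367 FPKM, and the 6 of 7 salivary gland markers with a row to 0.28, 133020 and 148257 FPKM (Eig71Ee, Sgs3 and Sgs5 were listed at 0 at 72 h). The part of tissue make-up in the larval difference was not tested, and in whole animals more RNA per cell and more cells of a type cannot be told apart.

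**Figure D3:**
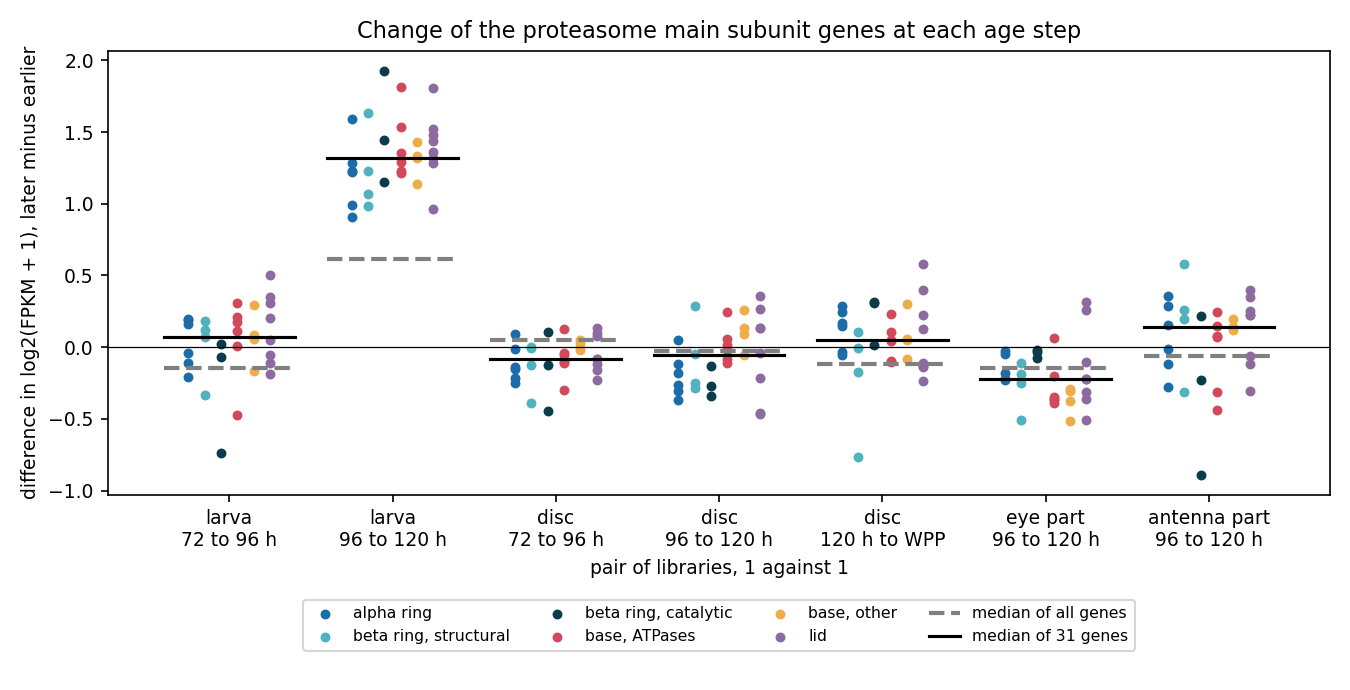
Difference in log2(FPKM + 1) of each main subunit gene between the later and the earlier library of 7 pairs, 1 library against 1. Points are genes coloured by part of the complex, black lines their median and dashed grey lines the median of all genes. The larval step from 96 to 120 h stands apart, with all 31 points between 0.91 and 1.93. Medians of the disc steps ran from -0.22 in the eye part, where 28 of 31 points are below 0, to 0.14 in the antenna part.

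In disc tissue the levels at different ages lay close together. Between whole discs at 72 and 96 h the median difference was -0.08 log2 units (all genes 0.05), and 0 of 31 genes were 2-fold apart, where 16.1% of all genes were. Among proteasome genes whose higher value reached 5 FPKM, Prosbeta5 (-0.45) and Prosbeta7 (-0.39) were furthest down, and Rpt3R (0.38) and the lid subunit Rpn9 (0.13) furthest up. With every library rescaled to an equal total the median difference was 0.10, so its direction is not settled.

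The age contrast between 96 and 120 h could be tested, because antenna part, eye part and whole disc gave 3 pairs of equal tissue. limma called 0 of the 34 proteasome genes that passed the filter at an adjusted p under 0.05, where it called 2.11% of 9081 genes. At an unadjusted p under 0.05 limma also called 0 of 34, where it called 18.2% of all genes. The median estimate of the 31 main subunits was -0.06 log2 units (all genes -0.08), with standard errors of 0.15 to 0.23. It was 0.02 with the median-ratio scaling and 0.04 with equal library totals. The estimate furthest down was that of Prosbeta5 (-0.35 ± 0.23 SE, limma adjusted p = 0.502), and that furthest up among main subunits Prosbeta3 (0.14 ± 0.21 SE, limma adjusted p = 0.786). Of the 34 genes tested, Rpt6R had the largest estimate (0.64 ± 0.27 SE, limma adjusted p = 0.311), at levels of 0.19 to 1.19 FPKM. Rpt6R reached 1 FPKM only in the eye and antenna parts at 120 h (1.19 and 1.15 FPKM). It passed the filter through these libraries alone, so a higher value at 120 h was part of its being tested. Its estimate is given as a description. These p-values measure only the spread between these libraries.

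Between 96 and 120 h the medians differed in sign between the 3 tissues. The median of the 31 genes was -0.22 in the eye part (all genes -0.15), 0.14 in the antenna part (all genes -0.06) and -0.06 in the whole disc (all genes -0.03, and 0.14 for the 31 when rescaled over transcripts of at least 200 nt). In the eye part 28 of 31 genes were lower at 120 h, as were 4895 of 7531 genes with 5 FPKM or more in the higher library. In the antenna part 20 of 31 were higher, as were 3275 of 7493 such genes. The size depended on the scaling: under the other scalings the median was -0.55 to -0.06 in the eye part, with 21 to 31 genes lower, and 0.18 to 0.53 in the antenna part, with 21 to 29 genes higher. A difference between the tissues in this step was not tested. The share of FPKM in genes under 200 nt was high at 96 h and low at 120 h in both parts, and the reverse in the whole disc. No proteasome gene was 2-fold apart in any of these 3 pairs, where 11.7%, 14.4% and 11% of all genes were in the eye, the antenna and the whole disc. The largest single difference among main subunits was that of Prosbeta5 in the antenna part (-0.89).

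At WPP the levels in the disc were close to those at 120 h, with Prosbeta3 set apart. The median difference of the 31 genes was 0.05 log2 units (all genes -0.12), 19 were higher at WPP, and 0 were 2-fold apart, where 14.4% of all genes were. With equal library totals the median difference was -0.05. Prosbeta3 had the lowest difference (-0.76), followed by Rpn11 (-0.24). The lid subunits Rpn5 (0.58) and Rpn9 (0.40) had the highest. Both libraries had a high share of FPKM in genes under 200 nt.

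With the mouthparts attached at 72 h, 26 of the 31 genes were lower than in the plain disc. So were 4784 of 8026 genes with 5 FPKM or more in the higher library. The median difference of the 31 was -0.18 log2 units (all genes -0.08). The median was -0.07 with 21 lower under the median-ratio scaling, -0.03 with 18 lower when rescaled over transcripts of at least 200 nt, and -0.31 with 29 lower at equal library totals. Genes under 200 nt held 30.1% of the FPKM with the mouthparts and 14.7% without. None was 2-fold apart, where 10.6% of all genes were. Among proteasome genes whose higher value reached 5 FPKM, Prosbeta5 (-0.53) and Rpn9 (-0.50) were furthest down, and Rpt3R (0.28) and Rpn11 (0.16) furthest up. The muscle markers summed to 11626 FPKM with the mouthparts and 6338 FPKM without, and their part in the difference was not tested.

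Eye and antenna parts were compared in the same fit. limma called 0 of 34 proteasome genes at an adjusted p under 0.05, where it called 3.14% of 9081 genes, and 0 of 34 at an unadjusted p under 0.05, where it called 14.8%. Of the 31 main subunits, 30 had an estimate below 0, that is lower in the eye part, with a median of -0.19 log2 units against -0.02 for all genes. This count was 30 under each of the 3 other scalings as well, with medians of -0.17 to -0.35, and the median was -0.38 to -0.10 when 1 library was left out. Prosbeta4 had the lowest estimate (-0.52 ± 0.23 SE, limma adjusted p = 0.416). Prosbeta5 was the 1 main subunit with an estimate above 0 (0.19 ± 0.29 SE, limma adjusted p = 0.873), and of the 34 genes tested Rpt3R had the highest (0.37 ± 0.19 SE, limma adjusted p = 0.522).

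The difference between the parts lay mostly at 120 h. The median of the 31 genes, eye minus antenna part, was -0.04 log2 units at 96 h (all genes 0.03) and -0.40 at 120 h (all genes -0.08). With equal library totals it was 0.04 at 96 h, so its direction there depends on the scaling, while at 120 h it was -0.32 to -0.77 under the other scalings. By group the gap at 120 h was -0.63 for the structural beta genes, -0.44 for the base subunits other than ATPases, -0.31 for the alpha ring, -0.28 for the lid and -0.22 for the ATPases. For the 3 catalytic genes it was 0.01 (-0.36 with equal library totals), with Prosbeta5 at 0.62. No main subunit was 2-fold apart at either age, where 12.6% and 12.3% of all genes were, but 4 were at 120 h with equal library totals. Both parts had about the same share of FPKM in genes under 200 nt at 96 h (23.2% and 24.8%) and at 120 h (6.70% and 6.77%). Muscle markers summed to 4407 FPKM in the antenna part and 490 FPKM in the eye part at 96 h, and to 254 and 39.8 FPKM at 120 h, and their part in the difference was not tested.

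**Figure D4:**
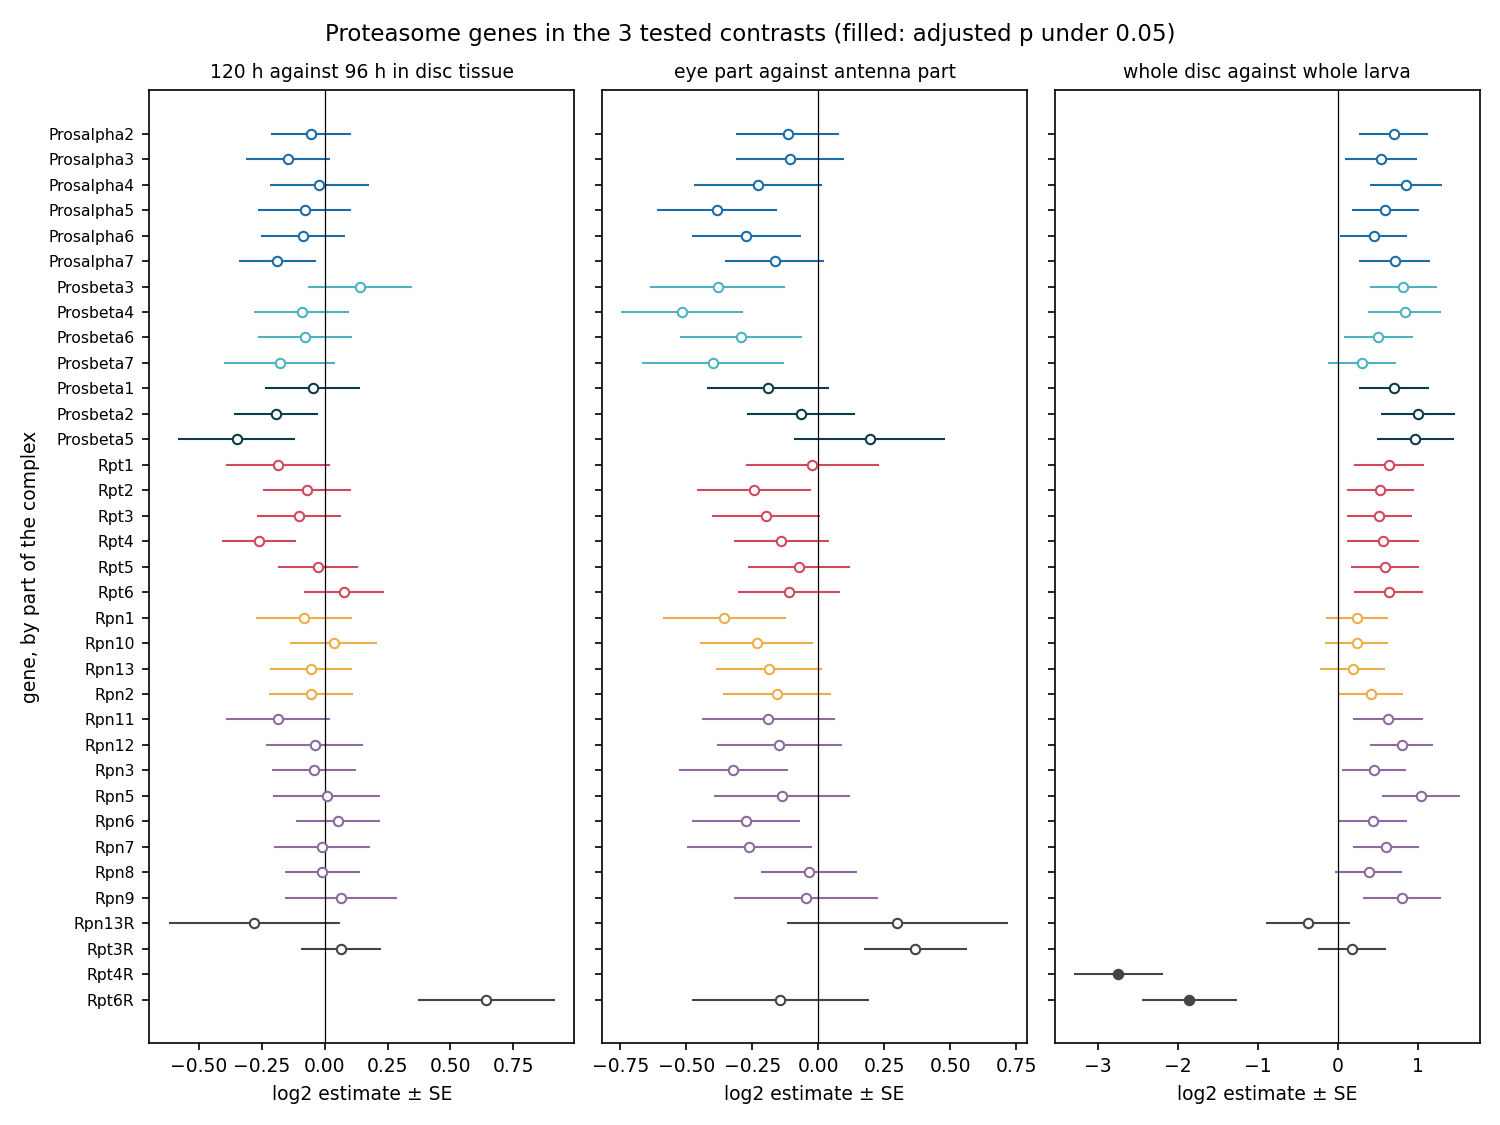
limma estimates on the log2(FPKM + 1) scale with their standard errors for the proteasome genes (rows, coloured by part of the complex) in 3 contrasts of 6 libraries each; positive values are higher at 120 h, in the eye part and in the whole disc. Filled points have an adjusted p under 0.05; these are Rpt4R and Rpt6R in disc against larva, which passed the filter through their larva libraries alone, so nothing is read from their fill. Rpt4R did not pass the filter in the first 2 contrasts.

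Whole discs were compared with whole larvae over 3 ages. limma called 0 of the 31 main subunits at an adjusted p under 0.05, where it called 50.1% of 9993 genes, and 0 of 31 at an unadjusted p under 0.05, where it called 58.3%. All 31 estimates were above 0, with a median of 0.59 log2 units, close to the 0.62 of all genes. The median was -0.39 with the median-ratio scaling, which also turned that of all genes to -0.27, and 1.19 with equal library totals, against 1.13 for all genes. Prosbeta2 had the lowest adjusted p of the 31 (1.00 ± 0.46 SE, limma adjusted p = 0.0975) and Rpn5 the largest estimate (1.04 ± 0.49 SE, limma adjusted p = 0.108). Rpn13, a ubiquitin receptor of the base, had the smallest (0.18 ± 0.41 SE, limma adjusted p = 0.723). With equal library totals 25 of the 31 were called, and without the larva at 120 h 17 were. The share of all genes called under these settings is not given here, so the counts are not read as particular to the main subunits.

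The 3 ages did not give 1 difference. At 72 and 96 h all 31 genes were higher in the disc, by medians of 1.14 and 1.01 log2 units (all genes 0.83 and 1.05), and 22 and 17 of them were at least 2-fold higher, where 45% and 51.7% of all genes were. At 120 h 29 of the 31 were lower in the disc, by a median of -0.36, while the median of all genes was 0.53, and 0 of the 31 were 2-fold lower, where 21.7% of all genes were. With the median-ratio scaling the 3 medians were 0.09, -0.25 and -1.001, and with equal library totals 1.93, 1.68 and -0.004. The base subunits other than ATPases were the group nearest to the larval level at 72 h (0.70) and 96 h (0.65) and furthest below it at 120 h (-0.53). The catalytic genes were furthest above it at 72 h (1.45) and 96 h (1.55).

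The 4 paralogs were far less abundant than the main genes. Rpt3R, a paralog of the ATPase Rpt3, was at 2.52, 6.15 and 19.98 FPKM in larvae at 72, 96 and 120 h. It was at 6.13, 8.27, 10.6 and 13.3 FPKM in whole discs at 72, 96 and 120 h and WPP and at 7.65 FPKM with the mouthparts. It was at 10.7 and 10.3 FPKM in the eye part and at 8.14 and 7.66 FPKM in the antenna part. Rpt3R was thus listed in all tissues, at 4.05% to 12.4% of the level of Rpt3.

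Rpt4R, a paralog of the ATPase Rpt4, was at 1.71, 6.62 and 14.6 FPKM in larvae. It was listed at 0 in the discs at 72 h and WPP and in both antenna libraries, and was under 0.1 FPKM in the mouthparts library, in the discs at 96 and 120 h and in the eye part at 96 h. The eye part at 120 h held 0.61 FPKM, below each larva library. The larva and disc groups thus did not overlap. No share of all genes without overlap is given here, and nothing is read from this. Rpt6R, a paralog of Rpt6, was at 0.54, 4.30 and 13.4 FPKM in larvae and at 0.23, 0.19, 0.70 and 0.81 FPKM in whole discs. It was at 0.20 FPKM with the mouthparts, 0.19 and 1.19 FPKM in the eye part, and 0.49 and 1.15 FPKM in the antenna part. The larva libraries at 96 and 120 h were above all disc tissue for Rpt6R, and that at 72 h was within its range.

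The limma estimates of disc against larva were -2.74 ± 0.56 SE log2 units for Rpt4R and -1.86 ± 0.59 SE for Rpt6R. Both passed the filter through their larva libraries alone, so that a difference was part of their being tested, and the estimates are given as a description. Both had an adjusted p under 0.05, as did 14.2% of all genes in the same direction, and nothing is read from this. At such levels the estimate depends on the pseudocount: with 0.1 in place of 1 it was -5.55 for Rpt4R and -2.98 for Rpt6R, and with 5 it was -1.20 and -0.87.

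Rpn13R, a paralog of Rpn13, was at 0.072, 1.22 and 6.13 FPKM in larvae, at 0.59, 1.03, 1.42 and 2.12 FPKM in whole discs and at 0.093 FPKM with the mouthparts. The eye part held 1.03 and 0.87 FPKM and the antenna part 1.22 and 0.13 FPKM, so the larva at 120 h was highest and the larva at 72 h lowest. It was not called between disc and larva (-0.37 ± 0.53 SE, limma adjusted p = 0.570). Each paralog was highest in the larva at 120 h. Markers of the male germ line with a row were twe, bol and mia, 3 of 20 listed, and none was at 0. They summed to 24.6, 24.9 and 64.4 FPKM in larvae at 72, 96 and 120 h and to 2.19 to 24.7 FPKM in disc libraries. Most of the larval sum was bol, at 23.5, 20.5 and 51.8 FPKM in larvae and 0.47 to 15.1 FPKM in disc libraries. The level of mia was 0.33 to 3 FPKM in larvae and 0.12 to 9.15 FPKM in disc libraries. Of the early germ line markers piwi had a row, at 0.19, 0.24 and 0.38 FPKM in larvae and up to 1.08 FPKM in disc libraries. The part of germ line RNA in the paralog levels was not tested, nor was how reads were divided between a paralog and its main gene.

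**Figure D5:**
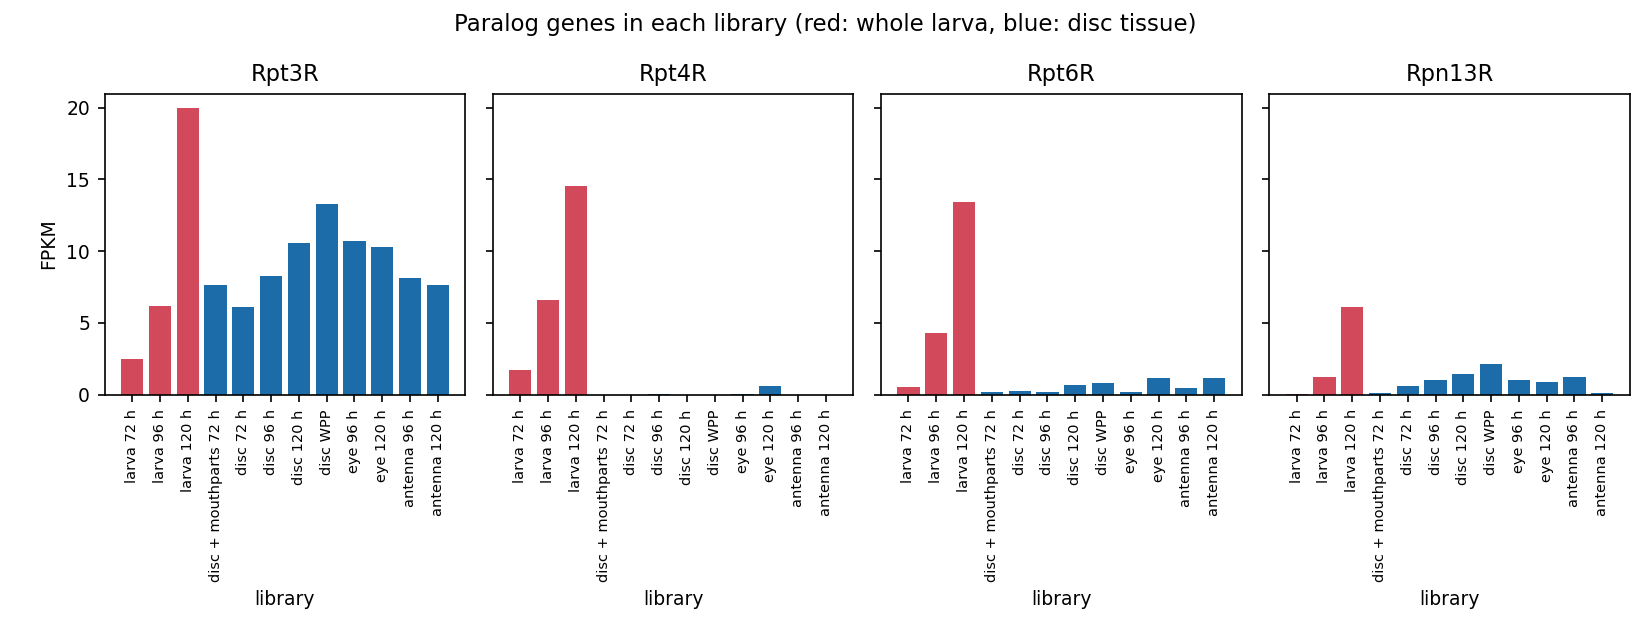
FPKM of the 4 paralog genes in each of the 12 libraries, on 1 linear axis from 0; red bars are whole larvae and blue bars disc tissue. The larva at 120 h is the highest bar for each gene, from 6.13 FPKM for Rpn13R to 19.98 FPKM for Rpt3R, and Rpt4R is near 0 in all disc tissue.

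Genes that work with the proteasome were read from a list of 18, of which 16 had a row. Between 96 and 120 h in disc tissue and between eye and antenna parts limma called 0 of the 16, where it called 2.11% and 3.14% of all genes. The lowest p was that of cnc, the Nrf-type transcription factor, in the eye part (-0.45 ± 0.16 SE, unadjusted p = 0.0339, limma adjusted p = 0.274). Between disc and larva limma called 3 of 16, all higher in the disc, where 35.9% of all genes were called higher. REG, the alternative activator that binds the core in place of the cap, was at 135, 41.9 and 83.1 FPKM in larvae and at 373, 244 and 223 FPKM in discs at the same ages, without overlap (1.80 ± 0.40 SE, limma adjusted p = 0.00646).

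Uch-L5, a deubiquitinase that binds the cap, was at 25.9, 44.4 and 78.1 FPKM in larvae and 136, 166 and 112 FPKM in discs (1.58 ± 0.43 SE, limma adjusted p = 0.0144). The small Maf protein maf-S, a partner of cnc, was at 42.3, 78.5 and 118 FPKM in larvae and 239, 265 and 166 FPKM in discs (1.57 ± 0.45 SE, limma adjusted p = 0.0184). Neither gene overlapped between larva and disc. The partner of maf-S, cnc, was at 57.9, 60.3 and 137 FPKM in larvae and 41.9, 42.3 and 44.7 FPKM in whole discs. These did not overlap either, but in the other direction, and cnc was not called (-0.85 ± 0.38 SE, limma adjusted p = 0.0839). The antenna part at 120 h held 59.3 FPKM of cnc, above the larva at 72 h. For REG, Uch-L5, maf-S and cnc, no share of all genes without overlap is given here. In this contrast limma called 50.1% of all genes. Of 5 ubiquitin genes, limma called Uba1, the enzyme that activates ubiquitin, higher in the disc (1.07 ± 0.39 SE, limma adjusted p = 0.0470).

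These 4 calls depended on the scaling and on single libraries. With the median-ratio scaling none of the 4 was called: REG was at 0.81 (limma adjusted p = 0.0940), Uch-L5 at 0.61 (limma adjusted p = 0.235), maf-S at 0.58 (limma adjusted p = 0.289) and Uba1 at 0.09 (limma adjusted p = 0.786). Nor was any of them called without the disc or the larva at 96 h. Uch-L5, maf-S and Uba1 were also not called without the disc or the larva at 72 h. Of 15 alternatives, 12 kept the call of REG, 9 that of Uch-L5, 9 that of maf-S and 6 that of Uba1, and all estimates stayed above 0. The 15 are not separate checks, because leaving out the disc or the larva of an age gave the same estimate. For REG it was 1.97 for either library at 72 h, 1.44 at 96 h and 1.99 at 120 h. A further term for libraries with a low share in short transcripts also gave 1.97. The tally thus counts some refits more than once.

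In the larval step from 96 to 120 h, all 16 partners were higher, by a median of 0.98 log2 units, and 7 of them at least 2-fold, where 25.1% of all genes were and the median of all genes was 0.61. With the median-ratio scaling the median of the 16 was 0.42. Pomp, the chaperone of core assembly, was at 168, 110 and 339 FPKM in larvae at 72, 96 and 120 h. The difference from 96 to 120 h was 1.61 for Pomp, 1.54 for the deubiquitinase Usp14 and 1.17 for cnc. REG (0.97) and maf-S (0.59) were higher by less than 2-fold.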

How the data were processed

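RNA was selected for poly(A) tails, reverse transcribed with random hexamers, ligated to adapters and size-selected, per the labels' protocols. Per the submitters' processing notes, TopHat, Cufflinks and the build dm3 were used; no versions, annotation or strand setting are stated there. The deposited table has 1 value per gene and library, read as FPKM from the authors' use of Cufflinks and from the values, since no header names the unit. The authors' cluster number (1 to 11) is a label of another kind and only describes. Depth is unknown, so no counting interval is given, and a 0 is reported as listed at 0.

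Symbols came from the annotation BDGP6.54 (94.6% of identifiers matched). That is not the authors' build, so no coordinates are printed. Values were used as log2(FPKM + 1). limma 3.58.1 in R 4.3.3 (lmFit, eBayes with trend and robust) was fitted to all genes of at least 1 FPKM in at least 2 of 6 libraries: whole disc with both of its parts at 96 and 120 h, or disc and larva at 72, 96 and 120 h, each with additive terms for tissue and age and 2 residual degrees of freedom. The error of a fit holds any interaction of tissue and age. Tests were two-sided, adjusted by Benjamini-Hochberg over all genes, at 0.05. Pairs of single libraries were not tested. The script was tested on simulated data. Other work used Python 3.11.15 with pandas 2.3.3.

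The members and lists were chosen with earlier results of these data known. Genes named are the 3 catalytic subunits, the 2 highest and 2 lowest main subunits, members called or with the largest estimate in each direction, the 2 largest differences each way per planned pair among members of at least 5 FPKM, every paralog above 1 FPKM, and partners past a test; genes named beyond this were chosen after their values were seen. Other pseudocounts, filters, scalings, fits and left-out libraries were tried, of which the rescaling over transcripts of at least 200 nt and the term for the share in short transcripts were added after seeing the data.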

Additional observations from a re-analysis of the deposited data

Results flagged for a closer look

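In the values as deposited, the difference between whole disc and whole larva had opposite signs at different ages. The median of the 31 main subunits, disc minus larva in log2(FPKM + 1), was 1.14 at 72 h and 1.01 at 96 h against -0.36 at 120 h. Prosbeta7 was 0.79 and 0.73 higher in the disc at 72 and 96 h and -0.62 at 120 h. Rpt4 was 1.29 and 1.02 higher and then -0.63. Rpn13 was 0.74 higher at 72 h and -0.70 at 120 h, and the paralog Rpt3R 1.02 and -0.86. With the median-ratio scaling the medians of the 31 were 0.09, -0.25 and -1.001 at the 3 ages. With equal library totals they were 1.93, 1.68 and -0.004. Rescaled over transcripts of at least 200 nt they were 1.17, 1.64 and -0.011. At 120 h, 14 of the 31 were above 0 with equal library totals and 13 over transcripts of at least 200 nt. The opposite sign at 120 h thus depended on the scaling. Each age had 1 library per tissue, so these differences between ages were not tested, and the size from which a gene was listed (0.6 in both directions) was chosen after its values were seen.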

How the results depend on the processing

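No main subunit was called by limma in the age or eye and antenna contrasts under any alternative, leave-one-out fits included. Between disc and larva the count of 0 became 25 with equal library totals and 3 rescaled over transcripts of at least 200 nt, and leaving out 1 library gave 0 to 17 (11 without the disc at 120 h, 17 without the larva at 120 h). These counts stand without the share of all genes called under the same settings. The disc step from 72 to 96 h had a median of 0.10 with equal library totals. The larval step from 72 to 96 h had a median of 0.36 with equal library totals and -0.41 over transcripts of at least 200 nt, with 1 gene past 2-fold. That from 96 to 120 h had a median of 0.74 and 5 genes past 2-fold with the median-ratio scaling, 1.58 with equal library totals and 1.80 over transcripts of at least 200 nt. Of the 10 genes with the most similar profile, 0 were shared with the median-ratio scaling and 0 without the larva libraries. A further term for libraries with a low share in short transcripts left 0 main subunits called in each contrast. It could not bear on eye against antenna part, whose shares were alike at each age (median -0.19 with and without it). Between disc and larva only the pair at 72 h differed in being low or high, so the term took that pair out of the estimate. The median of 0.32 it gave there was also the lowest over the fits without 1 library. The term is thus no test of the share in these contrasts. The cause of these shifts was not tested. No paired analysis was possible because the labels number no replicates to use as a block; matching by tissue and age is already in the fits as terms. With 2 residual degrees of freedom, small differences were not detectable.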

Other observations

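In the authors' deposited clusters, 13 of the 31 main subunits (41.9%) fell in cluster 5, which holds 5.66% of all genes. Cluster 11 held 5 of them (Prosalpha4, Prosbeta1, Rpn5, Rpn9 and Rpt6) and cluster 1 held 4. How the clusters were made is not given in the sources used here.

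Over the 12 libraries and 8153 genes with a mean of at least 5 FPKM, the profile most like the median of the main subunits was that of Npl4, a cofactor of the segregase that extracts ubiquitinated proteins (Pearson r = 0.97, as a description). Its level was 27.3, 28.5 and 57.7 FPKM in larvae at 72, 96 and 120 h and 43.0 to 57.9 FPKM in disc libraries. TTLL4A, CG6664, JIL-1, Uvrag, alpha4GT1, CG15445, CG42360, Rhau and trio followed, down to an r of 0.95. The libraries share their scaling, and none of these 10 genes remained among the first 10 with the median-ratio scaling or without the larva libraries.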
